A study of Canis lupus familiaris with 6 samples.

Results

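Interferon-stimulated genes were examined in CPEK cells, a canine epidermal keratinocyte line labelled wild type, after direct exposure to cold atmospheric microwave plasma (dCAMP) or to the carrier gas alone. The genes were chosen by symbol, from a list of 37 names of well-known interferon targets. Of these names, 35 were found in the gene table, and they belong to 36 of its 35993 genes, because OASL labels a pair of neighbouring genes on chromosome 26 (identifiers 477518 and 100685232). IFIT1 and IRF7 were not found under those symbols. The 3 dCAMP libraries came from cells treated with plasma for 30 s, and the 3 gas libraries came from cells given gas without plasma. In both groups the medium was replaced after 15 min and RNA was collected 24 h later. The methods of the study speak in general of independent experiments in triplicate, without naming the libraries, and the labels do not say whether the libraries of a group came from separate cultures. The p-values measure the spread between these libraries, which may be technical. The study has no untreated library among those analysed, so the gas control is the baseline here. The gas libraries held 45167120, 53166657 and 54082634 counts, and the dCAMP libraries 46479197, 43084921 and 44692385 counts.

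Interferons are secreted proteins that warn cells of viral infection. When a type I or type III interferon binds its receptor, JAK kinases pass the signal on to the transcription factor ISGF3, which holds STAT2 and IRF9 and switches on a broad set of antiviral genes, the interferon-stimulated genes. Keratinocytes carry receptors for these interferons and also keep some of the genes active at rest, so that the level of the set without infection is a property of the cell state.

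The cells carried the keratinocyte markers of their label. All 12 keratinocyte markers examined were tested, KRT5 was the most abundant of them, and their summed level was 66855, 63688 and 55919 CPM (counts scaled to the TMM-normalized library size) in gas libraries 1, 2 and 3, against 56330, 55406 and 53044 CPM in the dCAMP libraries. At an unadjusted p under 0.05, DSG3 and ITGA6 were higher and KRT5 and KRT14, which make up most of the sum, were lower with dCAMP. The leukocyte markers PTPRC, CD3E and CSF1R, the fibroblast markers PDGFRB, DCN and LUM, the endothelial marker PECAM1 and the melanocyte markers TYR and DCT had 0 counts in all 6 libraries, where a count of 0 allows up to 3 counts. Among the other markers, ITGAM was the most abundant of the leukocyte list, whose summed level was 4.71 to 5.90 CPM in gas and 5.67 to 7.64 CPM in dCAMP libraries, with 1 of 3 tested markers higher with dCAMP at an unadjusted p under 0.05, a threshold at which 6.81% of all genes were called higher and 13.9% lower. The fibroblast list summed to 6.6 to 7.02 CPM in gas and 6.51 to 7.10 CPM in dCAMP libraries, and COL1A1 was lower at that threshold. The endothelial list, led by VWF, summed to 15.7 to 18.4 CPM and 18.8 to 24.7 CPM, with 2 of 3 tested markers higher, and the melanocyte list, led by MITF, to 5.74 to 9.12 CPM and 8.86 to 9.78 CPM, with 1 of 3 higher. That gene was MLANA, with 4, 0 and 0 counts in gas and 13, 16 and 11 counts in dCAMP libraries. It passed the filter on low counts only through the group where it was high, so no conclusion is drawn from its call. The part of these differences in the values below was not tested. In bulk RNA, fewer cells that express a gene and less of its RNA per cell cannot be told apart.

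Over all tested genes, the gas libraries differed from each other more than the dCAMP libraries did. This held for 26 of the 34 tested interferon-stimulated genes, while STAT2, TRIM25, IRF9, DHX58, IFI6, IFIT3 and both OASL genes had a lower coefficient of variation among gas than among dCAMP libraries. On the first principal component of all tested genes, which held 71.2% of the variance, gas libraries 1, 2 and 3 were at −94.1, −23.0 and 21.7, whereas the dCAMP libraries were at 28.6, 33.2 and 33.6. In gas library 1, the median log2 ratio to the mean of the dCAMP libraries was −0.26 over the tested genes with a mean transcript length above the upper quartile of 4052 bases and 0.12 over those below the lower quartile of 1504 bases. The same direction was seen in 7 interferon-stimulated genes above 4052 bases, whose median log2 ratio in gas library 1 was −1.22, against −0.06 over the other 27 tested. Over the tested interferon-stimulated genes, the median coefficient of variation was 28.3% among the gas libraries and 10.1% among the dCAMP libraries, compared with 16.6% and 5.89% over all genes tested. Results are therefore given with and without single gas libraries where these decide them.

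In gas-treated CPEK cells the set was expressed at modest levels and was led by the transcription factor STAT2 and the 2′-5′-oligoadenylate synthetase OAS1. Levels of different genes are compared in FPKM, which accounts for transcript length. The median of the 34 genes tested was 1.85 FPKM, against 6.38 FPKM for all 14708 genes that passed the filter on low counts, and 7 of the 34 lay above the latter value. STAT2, a subunit of ISGF3, had the highest gas mean with 14.5 ± 0.539 FPKM (SD, n = 3). OAS1, which makes the 2-5A messenger that activates RNase L, followed with 13.2 ± 3.14 FPKM. The ranges of the 3 gas libraries overlapped between STAT2 and OAS1, so their order is not resolved. TRIM25, the ubiquitin ligase that acts on RIG-I, had 9.33 ± 0.322 FPKM, and its range lay below that of OAS1.

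**Figure D1:**
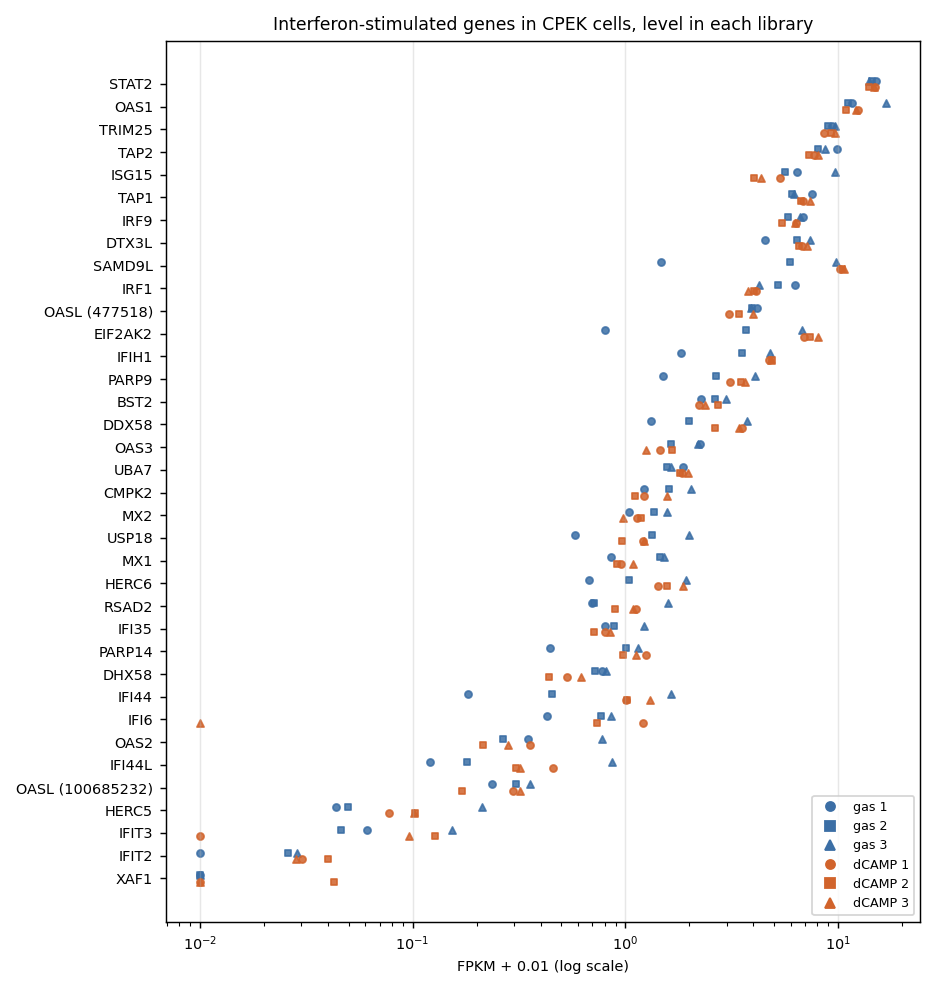
Level of each of the 36 interferon-stimulated genes in each library, in FPKM plus 0.01 on a log axis, ordered by the gas mean. Gas libraries are blue and dCAMP libraries orange, with circles, squares and triangles for libraries 1, 2 and 3. The levels run from 14.5 FPKM for STAT2 to 0 for XAF1, and gas library 1 lies far to the left for SAMD9L and EIF2AK2.

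Below these, the order of levels was TAP2, ISG15, TAP1, IRF9, DTX3L, SAMD9L and IRF1, with gas means between 8.84 and 5.23 FPKM. TAP1 and TAP2 together form the peptide transporter that loads MHC class I molecules, and their gas means were 6.59 ± 0.794 and 8.84 ± 0.941 FPKM. All neighbours within this run had overlapping gas ranges. In the whole order, only 4 of 35 neighbouring pairs had ranges that did not overlap, namely OAS1 and TRIM25, IRF1 and OASL (477518), OASL (100685232) and HERC5, and IFIT3 and IFIT2. In total, 10 of the 34 tested genes had a gas mean of at least 5 FPKM and 11 were under 1 FPKM.

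The lowest levels were those of HERC5, IFIT3, IFIT2 and XAF1. HERC5, the ligase that attaches ISG15 to new proteins, had 0.0918 ± 0.0955 FPKM in gas. IFIT3, an RNA-binding adaptor protein, was listed with 6, 5 and 19 counts in gas libraries 1, 2 and 3 and with 0, 12 and 10 counts in the dCAMP libraries. IFIT2 had at most 6 counts in any library, and XAF1, a proapoptotic protein that binds XIAP, had 2 counts in dCAMP library 2 and 0 elsewhere. IFIT2 and XAF1 did not pass the filter and were not tested. The gene LOC488947, which the table describes as an IFIT1 protein, is outside the list and had counts of 17, 39 and 55 with gas and of 49, 22 and 49 with dCAMP.

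The ligands of the pathway were at or near 0 in both groups. IFNG and IFNA7 had 0 counts in all 6 libraries. IFNB1, the first interferon made by most infected cells, had 0, 0 and 2 counts in gas and 1, 0 and 3 counts in dCAMP libraries. IFNL1, a type III interferon, had 5 counts in dCAMP library 1 and 0 counts in the others. The interferons of epithelia, IFNK and IFNE, had 3 to 11 and 3 to 9 counts. Of 8 ligand names, 6 were found and 0 passed the filter on low counts, so a difference in ligand expression was not detectable at this depth.

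The receptors were all detected. IFNGR2 and IFNGR1, the chains of the type II receptor, had gas means of 17.4 and 13.0 FPKM. IFNAR1 and IFNAR2, the chains of the type I receptor, had 2.03 and 1.5 FPKM, and IFNLR1 and IL10RB, which form the type III receptor, had 0.722 and 8.97 FPKM.

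In the comparison of dCAMP with gas, 0 of the 34 tested genes passed the quasi-likelihood test of edgeR at an adjusted p under 0.05 (Benjamini-Hochberg over all genes), where the background was 0.0% of the 14708 genes. DESeq2 also called 0 of the set, against a background of 0.585%, but gave no adjusted p for 4 of the 34 and for 2286 of all genes. The smallest adjusted p in the set was 0.229 by edgeR and 0.164 by DESeq2. At an unadjusted p under 0.05, 4 of the 34 genes were called by edgeR, 0 higher and 4 lower with dCAMP, and 3 by DESeq2, against a background of 21.3%. Across all genes tested, 20.7% were called by edgeR at that threshold, 6.81% higher and 13.9% lower, so the share of the set was below the background for both directions together and near it for lower genes. With a 2-fold change required as well, 0 of the 34 were called, against 1.09% of all genes. The median log2 fold change was −0.11 over the set and 0.03 over all genes tested. By sign, 13 of the set were higher and 21 lower, against 7706 and 7002 of all genes. Without gas library 3 the set had 18 higher and 16 lower, and with voom quality weights 19 and 15.

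**Figure D2:**
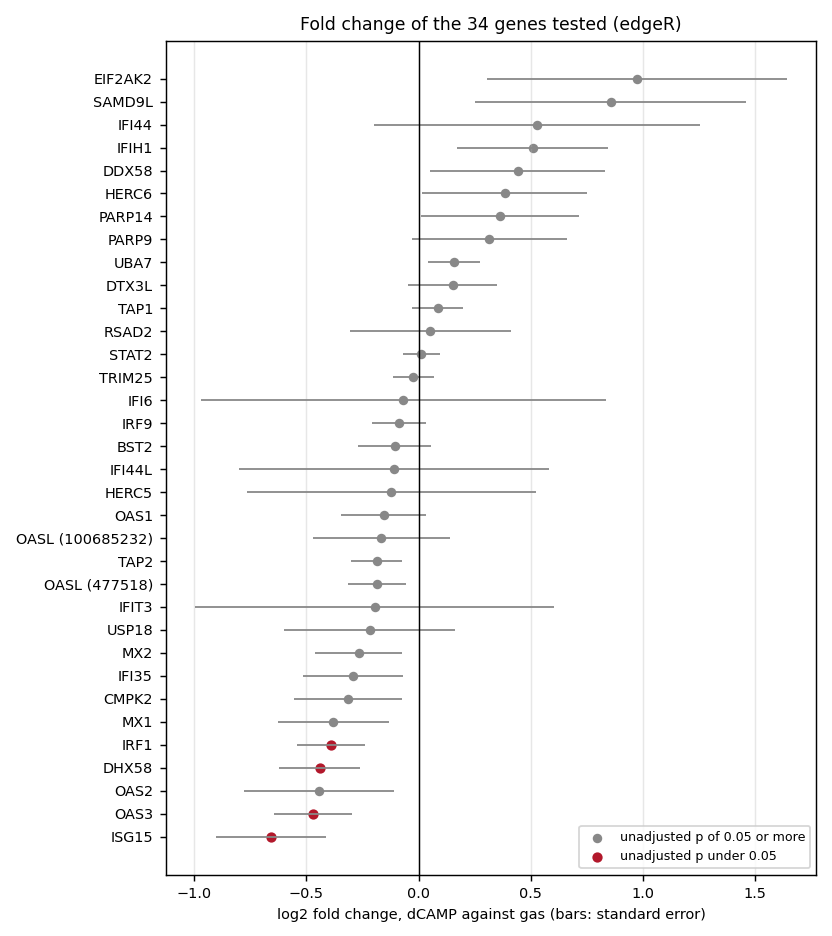
Log2 fold change of dCAMP against gas for the 34 genes tested by edgeR, with bars of 1 standard error on each side. The 4 genes with an unadjusted p under 0.05 (red) are ISG15, OAS3, DHX58 and IRF1, all to the left of 0, and the bars of EIF2AK2, SAMD9L and IFI44 at the other end are among the widest.

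ISG15, the ubiquitin-like protein that is attached to other proteins during the antiviral response, had the smallest unadjusted p. Its level was 6.27, 5.62 and 9.77 CPM in gas libraries 1, 2 and 3 and 5.35, 4.01 and 4.32 CPM in the dCAMP libraries. All dCAMP values were below all gas values, and gas library 3 stood apart as the highest. The log2 fold change was −0.66 with a standard error of 0.244, and the adjusted p of the edgeR quasi-likelihood test was 0.229. Without gas library 3 it was −0.42. The gene lies on chromosome 5 (CanFam3.1, 56230879 to 56237354) and has 1 known transcript.

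Of the genes that attach ISG15 to its targets or remove it, UBA7, HERC6, TRIM25 and USP18 had overlapping groups. UBA7, the E1 enzyme of the conjugation, had 7.04, 6.04 and 6.39 CPM in gas and 7.16, 6.95 and 7.64 CPM in dCAMP libraries, which overlapped, and its log2 fold change was 0.16 with a standard error of 0.116 and an edgeR adjusted p of 0.381. It dropped to 0.08 when gas library 2 was left out, to 0.10 when gas library 3 was left out and to 0.09 when dCAMP library 3 was left out. It was 0.0689 with upper-quartile factors and 0.0404 with the length trend removed. TRIM25 was between 55.5 and 60.0 CPM in gas and between 53.3 and 59.1 CPM in dCAMP libraries. USP18, the protease that removes ISG15 and dampens receptor signalling, ran from 1.27 to 3.94 CPM in gas and from 2.01 to 2.37 CPM in dCAMP libraries, so that the dCAMP range lay inside the gas range. HERC6, a relative of HERC5, had 3.18, 5.07 and 9.03 CPM in gas and 6.69, 7.23 and 8.68 CPM in dCAMP libraries, and here too the groups overlapped. Among the 6 genes of this group, ISG15 alone had an unadjusted p under 0.05, against 20.7% of all genes called and 13.9% called lower. By sign, 2 of the 6 were higher and 4 lower with dCAMP. The count turned to 4 higher and 2 lower without gas library 3 and with voom quality weights, and to 3 of each with the replicate block, on log2 of FPKM plus 0.1 and without dCAMP library 1.

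The OAS family, which senses double-stranded RNA, had lower estimates with dCAMP for 5 of 5 genes, 1 of them with an unadjusted p under 0.05 beside 13.9% of all genes called lower, and 4 of 5 remained lower without gas library 3, where OAS1 turned to the other side, and without dCAMP library 2, where OASL (100685232) did. With voom quality weights OAS1 and OAS2 were on the other side. OAS3 had 8.30, 6.23 and 8.48 CPM in gas and 5.59, 6.25 and 4.74 CPM in dCAMP libraries. Gas library 2 and dCAMP library 2 were nearly level, and the groups overlapped there. Its log2 fold change was −0.47 with a standard error of 0.175 and an edgeR adjusted p of 0.230. OAS1 stood at 21.3, 21.2 and 32.1 CPM in gas and at 23.6, 20.4 and 22.9 CPM in dCAMP libraries, so gas library 3 alone was raised. OASL (477518), the more abundant of the OASL pair, was even among gas libraries at 7.86, 7.69 and 7.67 CPM and spread from 6.04 to 7.75 CPM in dCAMP libraries, with a log2 fold change of −0.19, a standard error of 0.129 and an edgeR adjusted p of 0.361. It was −0.11 when dCAMP library 1 was left out and −0.32 when dCAMP library 3 was left out. OASL (100685232) was lower in level, with 0.432, 0.570 and 0.679 CPM in gas and 0.561, 0.327 and 0.598 CPM in dCAMP libraries. Whether reads were split between the OASL pair was not tested. OAS1, OAS3 and OAS2 lie side by side on chromosome 26 (10385393 to 10450085, CanFam3.1).

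Among the RNA sensors, DHX58 differed in direction from IFIH1 and DDX58. DHX58 encodes LGP2, which regulates the sensors MDA5 and RIG-I that are encoded by IFIH1 and DDX58. DHX58 had 2.18, 2.07 and 2.43 CPM in gas and 1.66, 1.33 and 1.90 CPM in dCAMP libraries, with no overlap. Its log2 fold change was −0.44 with a standard error of 0.181 and an edgeR adjusted p of 0.241. The unadjusted p of DHX58 was under 0.05 by edgeR but 0.0719 by DESeq2. With the replicate block, and with any single library left out except dCAMP library 3, it was also not under 0.05. IFIH1 had 11.8, 23.6 and 32.1 CPM in gas and 31.6, 32.4 and 32.1 CPM in dCAMP libraries. The dCAMP values were almost equal, gas library 3 was level with them, and the log2 fold change of 0.51, with a standard error of 0.336 and an edgeR adjusted p of 0.346, came from gas libraries 1 and 2. DDX58 had 4.80, 7.46 and 14.2 CPM in gas and 13.3, 9.80 and 12.9 CPM in dCAMP libraries, where gas library 3 was above every dCAMP library and gas libraries 1 and 2 were below. The log2 fold change of DDX58 was 0.44 with a standard error of 0.388 and an edgeR adjusted p of 0.452. Without gas library 1, the log2 fold changes of IFIH1 and DDX58 were 0.19 and 0.13. Without gas library 3, where 33.1% of all genes passed, they were 0.81 and 0.92, with edgeR adjusted p of 0.073 and 0.0378. With the length trend removed, that of IFIH1 was 0.33.

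Of the transcription factors, IRF1 was lower with dCAMP and the ISGF3 subunits STAT2 and IRF9 showed little difference. IRF1, an interferon-γ-induced activator of the set, had 14.5, 12.4 and 10.2 CPM in gas and 9.80, 9.54 and 8.94 CPM in dCAMP libraries, again without overlap. Gas library 1 was the highest for this gene and gas library 3 the lowest of its group. The log2 fold change was −0.39 with a standard error of 0.153 and an edgeR adjusted p of 0.237. Without gas library 3 it was −0.56, and the edgeR adjusted p was 0.0265, a setting in which 33.1% of all genes passed. Without gas library 1 it was −0.28 with an edgeR adjusted p of 0.260, and the unadjusted p was no longer under 0.05. STAT2 ranged from 63.5 to 65.2 CPM in gas and from 61.9 to 66.9 CPM in dCAMP libraries, and IRF9 from 13.2 to 15.2 CPM and from 12.3 to 14.5 CPM. The locus of STAT2 overlaps LOC111097815.

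**Figure D3:**
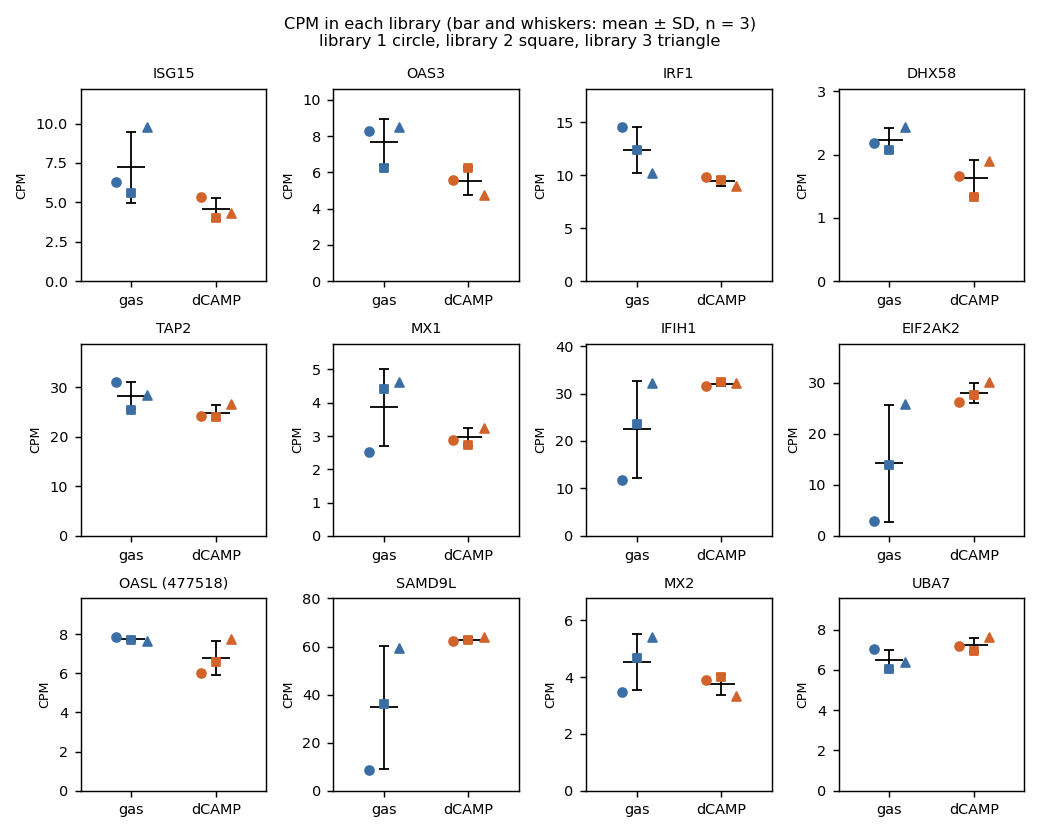
CPM in each library for the 12 genes of the set with the smallest unadjusted p, in order of p. Circles, squares and triangles are libraries 1, 2 and 3, and the black bar and whiskers are the mean ± SD of 3 libraries. ISG15, IRF1 and DHX58 are lower in all dCAMP libraries, EIF2AK2 and SAMD9L are higher, and the remaining 7 overlap.

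The MX GTPases, which trap viral nucleocapsids, had lower estimates for both genes. MX1 had 2.53, 4.43 and 4.62 CPM in gas and 2.89, 2.73 and 3.25 CPM in dCAMP libraries. Gas library 1 was below the dCAMP libraries and the other gas libraries were above them. The log2 fold change was −0.38 with a standard error of 0.247 and an edgeR adjusted p of 0.341. Leaving out gas library 1 made it −0.62, and leaving out gas library 3 made it −0.28. MX2 had 3.46, 4.67 and 5.41 CPM in gas and 3.91, 4.01 and 3.32 CPM in dCAMP libraries, and its log2 fold change was −0.27 with a standard error of 0.195 and an edgeR adjusted p of 0.38. These leave-outs moved it to −0.44 and −0.16.

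EIF2AK2 and SAMD9L were the members whose dCAMP values all lay above the gas values. EIF2AK2 encodes PKR, the kinase that stops translation on binding double-stranded RNA, and had 2.92, 14.0 and 25.8 CPM in gas and 26.2, 27.7 and 30.1 CPM in dCAMP libraries. SAMD9L, a cytoplasmic restriction factor of poxviruses, had 8.62, 36.0 and 59.6 CPM in gas and 62.1, 62.6 and 64.0 CPM in dCAMP libraries. For both, gas library 3 was just under the dCAMP range and gas library 1 was far below it. The log2 fold change of EIF2AK2 was 0.97 with a standard error of 0.668 and an edgeR adjusted p of 0.360. Leaving out gas library 1 made it 0.48, and leaving out gas library 3 made it 1.68. For SAMD9L it was 0.86 with a standard error of 0.604 and an edgeR adjusted p of 0.369. It fell short of this, at 0.38, when gas library 1 was left out, and reached 1.45 when gas library 3 was left out. In that last setting both genes passed the 2-fold rule, as did 10.2% of all genes. The locus of EIF2AK2 overlaps 3 other genes of the table, among them SULT6B1. In all, 5 of 34 genes of the set (14.7%) had groups that did not overlap, 2 higher and 3 lower, against 39.9% of all genes tested, 19.0% higher and 20.9% lower.

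Among the other antiviral effectors, RSAD2 and CMPK2 spread more widely among the gas than among the dCAMP libraries. RSAD2 (viperin, which makes a chain-terminating nucleotide) had 3.22, 3.38 and 7.67 CPM in gas and 5.42, 4.22 and 5.18 CPM in dCAMP libraries. Its neighbour CMPK2, a mitochondrial nucleotide kinase, ran from 3.26 to 5.62 CPM and from 3.01 to 4.29 CPM. BST2 (tetherin, which holds budding virions at the cell surface) ran from 2.92 to 3.94 CPM in gas and from 2.93 to 3.57 CPM in dCAMP libraries. All 3 had overlapping groups.

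IFI44, a cytoplasmic protein of the response, varied widely in gas, with 0.843, 2.18 and 8.09 CPM in the gas libraries and 4.92, 4.88 and 6.33 CPM in the dCAMP libraries. IFI44L, which lies next to it on chromosome 6, had 0.324, 0.494 and 2.32 CPM in gas and 1.14, 0.863 and 0.907 CPM in dCAMP libraries. For both, gas library 3 was above every dCAMP library and the other gas libraries were below every one. The log2 fold changes of IFI44 and IFI44L were 0.53 and −0.11, with standard errors of 0.725 and 0.689 and edgeR adjusted p of 0.627 and 0.922. With the replicate block they were 1.03 and 0.30, and with voom quality weights 1.27 and 0.93, so that of IFI44L changed sign. Without gas library 3, where 33.1% of all genes passed, they were 1.75 and 1.12, with edgeR adjusted p of 0.0284 and 0.0381, whereas without gas library 1 they were 0.06 and −0.52. IFI35 ran from 1.08 to 1.72 CPM in gas and from 0.980 to 1.17 CPM in dCAMP libraries. IFI6, a small membrane protein that limits apoptosis, had 15, 32 and 37 counts in gas and 45, 25 and 0 counts in dCAMP libraries.

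PARP9, DTX3L and PARP14, genes of ADP-ribosylation and ubiquitin transfer, had higher estimates with dCAMP in 3 of 3. None had an unadjusted p under 0.05, a threshold at which 6.81% of all genes were called higher. Without gas library 1, DTX3L was on the other side. PARP9 had 5.21, 9.34 and 14.4 CPM in gas and 10.9, 12.3 and 12.9 CPM in dCAMP libraries. Its partner DTX3L, whose locus overlaps that of PARP9 on chromosome 33, had 11.8, 17.2 and 19.9 CPM and 18.1, 17.3 and 19.0 CPM. In both, the dCAMP values lay between those of gas libraries 1 and 3. PARP14 had 2.72, 6.31 and 7.35 CPM in gas and 7.79, 6.18 and 7.17 CPM in dCAMP libraries, and gas library 1 was the lowest. TAP2 had 31.0, 25.5 and 28.4 CPM in gas and 24.2, 23.9 and 26.5 CPM in dCAMP libraries, and the log2 fold change was −0.19 with a standard error of 0.115 and an edgeR adjusted p of 0.326, and it was −0.29 when gas library 2 was left out. TAP1 ran from 20.0 to 24.0 CPM and from 21.8 to 24.0 CPM.

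The pattern that recurred across the set was a high value in gas library 3. This library held the highest of the 6 values for 23 of the 34 genes (67.6%), compared with 10.3% of all genes tested. It was above every dCAMP library for 25 of the 34 (73.5%), against 32.3% of all genes, and the median log2 ratio to the dCAMP mean was 0.26 over the set and 0.00 over all genes. Gas library 1 held the lowest value for 15 of the 34 (44.1%), near the 39.2% of all genes. Both features together, gas library 3 above and gas library 1 below every dCAMP library, were found in 11 of the 34 (32.4%), against 7.76% of all genes. These 11 were MX1, DDX58, RSAD2, IFI44, IFI44L, BST2, USP18, HERC5, HERC6, PARP9 and DTX3L. The libraries were compared after the values were seen, no test was made of this pattern, and with 1 library a cause cannot be told apart from the library itself.

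**Figure D4:**
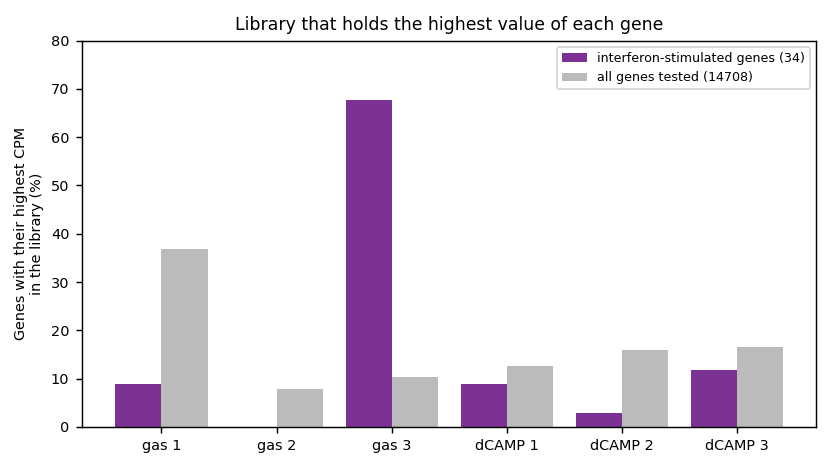
Percent of genes whose highest CPM was found in each of the 6 libraries, for the 34 interferon-stimulated genes tested (purple) and for all 14708 genes tested (grey). Gas library 3 held the highest value for 67.6% of the set and 10.3% of all genes, and gas library 1 for 8.82% of the set and 36.9% of all genes.

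**Figure D5:**
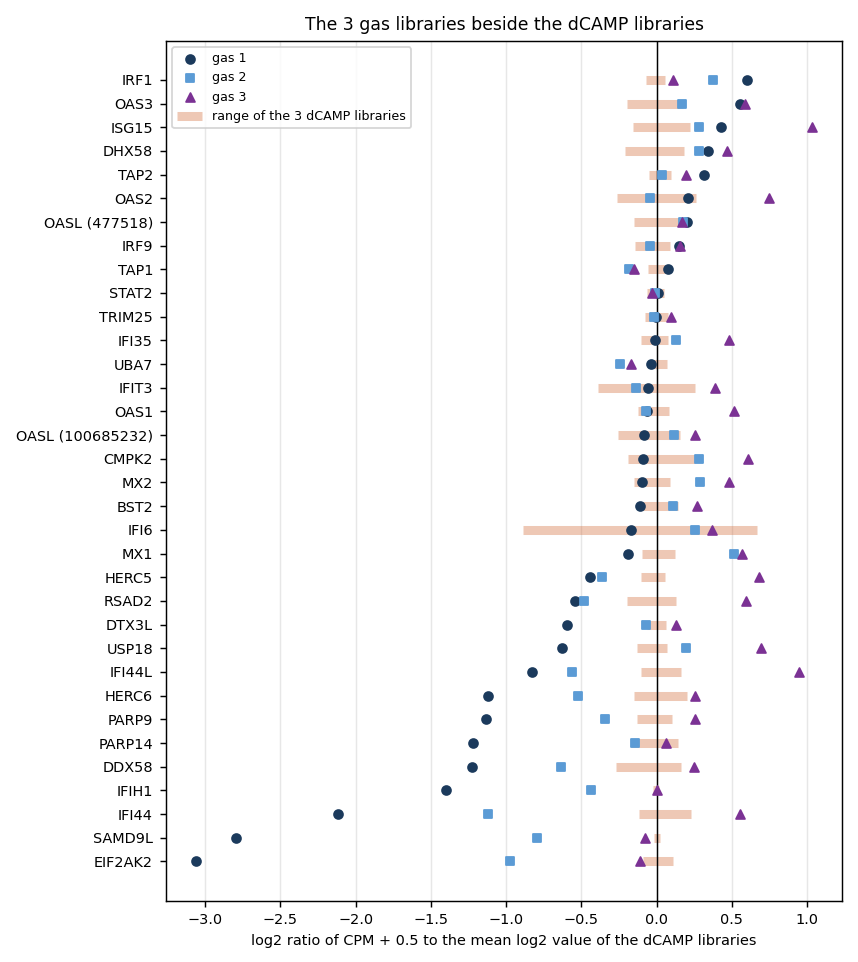
Log2 ratio of CPM plus 0.5 in each gas library to the mean log2 value of the 3 dCAMP libraries, for the 34 genes tested in order of gas library 1. Orange bars are the range of the dCAMP libraries. Gas library 1 is more than 2-fold below the dCAMP mean for 8 of the 34 genes, against 17.1% of all genes tested. Gas library 3 lies to the right of the orange bar for 25 genes, against 32.3% of all genes.

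The transcript table was used to see whether a gene value rested on 1 transcript. Of 76 known transcripts of the set, 69 had at least 1 count, and 14 genes had counts on more than 1 transcript. One of the 3 known transcripts of DHX58 had 44, 80 and 40 counts in gas and 0 in every dCAMP library, and it was the only transcript of the set with at least 5 counts in every library of 1 group and 0 in the other. Another DHX58 transcript had 34, 0 and 33 counts in gas and 20, 19 and 30 counts in dCAMP libraries. The last had 23, 29 and 56 counts in gas and 57, 38 and 56 counts in dCAMP libraries. Only the first was therefore lower in every dCAMP library. OAS2 had 99 counts on its shorter transcript in gas library 3 and 0 in the other 5 libraries, while its longer transcript had 60, 53 and 13 counts in gas and 63, 34 and 48 counts in dCAMP libraries. Counts per transcript depend on how reads common to several transcripts were divided, and the effect of that division was not tested.

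The other genes of the pathway were examined in lists by their roles. Of the 6 interferon receptor chains, 0 had an unadjusted p under 0.05, against 20.7% of all genes tested. IFNGR1 had 23.3, 36.9 and 44.5 CPM in gas and 44.5, 45.0 and 45.6 CPM in dCAMP libraries, and JAK2, the kinase of the type II receptor, had 6.89, 22.3 and 44.1 CPM and 46.4, 48.4 and 49.8 CPM. Both had the profile of EIF2AK2, with gas library 1 lowest and gas library 3 next to the dCAMP values.

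Among 9 tested sensors and adaptors, 3 had an unadjusted p under 0.05, and all were lower with dCAMP, against 20.7% of all genes called and 13.9% called lower. MAVS, the mitochondrial adaptor of RIG-I and MDA5, had 77.2, 64.7 and 62.0 CPM in gas and 52.1, 46.7 and 57.0 CPM in dCAMP libraries. Its log2 fold change was −0.39 (standard error 0.129, edgeR adjusted p 0.221). TICAM1, the adaptor of TLR3, and IKBKE, a kinase that activates IRF3, had log2 fold changes of −0.42 and −0.32 with edgeR adjusted p of 0.230 for each. TICAM1 had 36.1, 29.5 and 24.4 CPM in gas and 22.3, 22.6 and 22.4 CPM in dCAMP libraries. IKBKE had 101, 86.6 and 78.2 CPM in gas and 71.9, 74.2 and 67.7 CPM in dCAMP libraries. Gas library 1 was the highest for each. The groups did not overlap for these 3 genes, nor for TBK1, which was higher with dCAMP. Among the 9 tested, groups without overlap were thus 1 higher and 3 lower, against 19.0% and 20.9% of all genes. TBK1, the other kinase of IRF3, stood at 4.82, 27.8 and 50.6 CPM in gas and 51.8, 55.3 and 51.9 CPM in dCAMP libraries. The DNA sensors CGAS and ZBP1 and the RNA sensor TLR7 had 0 counts in all 6 libraries. None of the 7 negative regulators, among them SOCS1 and SOCS3, had an unadjusted p under 0.05, against 20.7% of all genes.

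Of 15 other interferon-induced effectors tested, 1 was higher and 2 were lower at an unadjusted p under 0.05, which is close to the 6.81% and 13.9% of all genes. ZC3HAV1 (ZAP, which degrades CpG-rich viral RNA) had 29.3, 40.6 and 61.2 CPM in gas and 74.0, 64.0 and 71.6 CPM in dCAMP libraries, and the fold change on the log2 scale was 0.68 (standard error 0.262, edgeR adjusted p 0.235, or 0.44 when gas library 1 was left out). PML, the scaffold of nuclear bodies, had 150, 142 and 122 CPM in gas and 106, 105 and 108 CPM in dCAMP libraries, and the fold change on the log2 scale was −0.38 (standard error 0.0994, edgeR adjusted p 0.221). UBE2L6, the E2 enzyme of ISG15 conjugation, had 19.6, 18.5 and 15.7 CPM and 15.5, 13.4 and 14.3 CPM, with a log2 fold change of −0.32. In each of these 3 genes the groups did not overlap, and gas library 3 was the gas library nearest to the dCAMP values. Among the 15 tested, groups without overlap were 3 higher and 4 lower, against 19.0% and 20.9% of all genes.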

How the data were processed

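RNA-Seq libraries of CPEK cells (3 gas, 3 dCAMP) were made with a stranded mRNA kit. Per the labels and methods, the authors trimmed reads with Trimmomatic 0.38, mapped them to CanFam3.1 with HISAT2 2.1.0 and summarized known transcripts with StringTie 2.1.3b. The deposited count of each gene and transcript is a raw whole number. In the deposited FPKM columns the authors had scaled for length and for the number of mapped reads. The annotation release, and whether counting used strand, are not given in the sources used here. Loci of 8 of the 36 genes overlap another gene. The TPM columns (6 per table) were not used. Reference gene names (UU_Cfam_GSD_1.0) covered 30915 of 35993 gene identifiers and placed 4 pathway genes. Coordinates are those deposited.

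Counts were analysed in R 4.3.3 with edgeR 4.0.16 (TMM, filterByExpr, quasi-likelihood test, prior count of 2, Benjamini-Hochberg adjustment over 14708 genes). Alternatives used DESeq2 1.42.0, limma 3.58.1 (voom with sample quality weights, or log2 of FPKM plus 1 or 0.1), other size factors, no filter or at least 10 counts in every library, removal of a length trend, the replicate number as a block, each library left out, and the default prior count of edgeR, which was chosen after seeing the data. Between 43084921 and 54082634 counts per library set the precision; a count of 0 allows up to 3 counts, for counting error only. The steps were tested on simulated data of the dCAMP against gas comparison (14708 genes) in which 200 were given a 3-fold change. With a dispersion of 0.01, 99.5% were recovered by edgeR with 9 false calls and 95% by DESeq2 with 17. With 0.05 these were 97% with 5 and 92% with 13. Recovery of changes smaller than 3-fold, or with gas libraries more variable than dCAMP libraries, was not tested.

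Fold changes with errors are given for the 12 genes of the set with the smallest unadjusted p, and levels for every member. Pathway genes with an unadjusted p under 0.05, the receptors and the ligands could be named too, and 1 further gene of the rule is not reported here; fold changes of DDX58, IFI44 and IFI44L, and values of JAK2, TBK1 and LOC488947, were added after their values were seen. The members, lists and tests were chosen with earlier results of these data known. Promoter and protein sequences were not used here.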

Additional observations from a re-analysis of the deposited data

How the results depend on the processing

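The count of genes of the set with an unadjusted p under 0.05 was 4 in the main analysis, 17 with voom quality weights (12 higher, 5 lower, against 64.9% of all genes) and 2 with the replicate number as a block (18.9% of all genes). Leaving out single libraries gave 1 to 12, with 12 without gas library 3 (10 higher, 49.2% of all genes), 6 without gas library 1 (20.6%), 2 without gas library 2 (8.25%) and 1 without dCAMP library 1, 2 or 3 (8.23%, 9.61% and 6.86%). The count at an adjusted p under 0.05 was 0, against 15 with voom quality weights (60.8% of all genes) and 0 to 5 with a library left out, where the 5 without gas library 3 were DDX58, IFI44, IFI44L and HERC6, higher, and IRF1, lower (33.1% of all genes). With a 2-fold change required, it was 0, against 2 with voom quality weights (IFI44 and EIF2AK2, 6.87% of all genes) and 0 to 4 with a library left out, the 4 being IFI44, IFI44L, SAMD9L and EIF2AK2 without gas library 3 (10.2% of all genes). The median log2 fold change was −0.11, against 0.0401 with voom quality weights and −0.21 to 0.02 with a library left out, and without gas library 3 it changed sign. The cause of these changes was not tested. The voom weights were 0.115, 6.74 and 0.192 for gas libraries 1, 2 and 3, so that comparison rested mostly on gas library 2. No fold change given for the 12 genes changed sign under any alternative run, but sizes moved: with voom quality weights ISG15 was −0.31, OAS3 −0.23, TAP2 −0.04 and UBA7 0.27, and on log2 of FPKM plus 1, which understates low genes, OAS3 was −0.30, DHX58 −0.21, MX1 −0.19, MX2 −0.14 and UBA7 0.10. The deviations of same-numbered gas and dCAMP libraries correlated with r = 0.13, 0.0237 and 0.0479, and those of differently numbered libraries with r from −0.139 to 0.0873. With 3 libraries per group, these values cannot decide whether the numbers pair the libraries. The block changed no call at an adjusted p under 0.05.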

Other observations

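The genes listed under antigen processing and MHC class I, which interferon-γ also induces, ranged widely in level. Their gas means ran from 97.6 FPKM for B2M to 0.108 FPKM for PSMB8. CIITA, a regulator kept in the same list, had 0.0031 FPKM. Of 9 tested genes of antigen processing and MHC class I, 1 was higher and 2 were lower with dCAMP at an unadjusted p under 0.05, against 6.81% and 13.9% of all genes, and none passed the adjusted test of edgeR. B2M, the light chain of MHC class I, had a gas range that overlapped that of TAPBP in FPKM, and had 65.9, 104 and 119 CPM in gas and 126, 124 and 132 CPM in dCAMP libraries. TAPBP (tapasin, which bridges the TAP transporter and MHC class I) had 281, 281 and 251 CPM in gas and 236, 226 and 242 CPM in dCAMP libraries, with a log2 fold change of −0.21. PSMB10, a subunit of the immunoproteasome, had 29.0, 23.0 and 20.8 CPM and 19.3, 17.7 and 18.5 CPM, with a log2 fold change of −0.39. Gas library 1 stood apart as the highest for PSMB10. NLRC5, the transactivator of MHC class I genes, had 2.98, 2.28 and 2.56 CPM and 3.17, 3.66 and 3.32 CPM, with a log2 fold change of 0.37. The groups did not overlap for these 4 of the 9 tested genes, 2 higher and 2 lower, against 19.0% and 20.9% of all genes tested. PSMB8, another immunoproteasome subunit, had 9, 8 and 4 counts in gas and 0 in every dCAMP library, which allows up to 3 counts each. The class I heavy chain genes DLA-12, DLA-64 and DLA88 had overlapping groups, and since these genes are similar in sequence, reads may have been split among them.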
